A study of Mus musculus with 2 samples.

Results

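The locus of miR-132 and miR-212 encodes 2 microRNA hairpins, Mir212 and Mir132, each of which yields a 5p and a 3p mature arm. Its 4 members, listed as mmu-miR-132-5p, mmu-miR-132-3p, mmu-miR-212-5p and mmu-miR-212-3p (the prefix for mouse is left out below), were taken by name from the 1909 mature microRNAs in the deposited count tables. The study sequenced small RNA of vascular smooth muscle cells cultured from thoracic aorta. The 2 groups were db/+ control mice, whose genetic background is labelled Lepr+/-, and type 2 diabetic db/db mice of the background BKS.Cg-m+/+Leprdb/J, in which the leptin receptor does not work. Both groups were male mice of 10 to 12 weeks, and both cultures were kept in DMEM/F-12 medium that contained antibiotics and 10% fetal bovine serum. Each group had 1 library, and neither the number of mice behind a culture nor the number of passages was given in the sources used here. The locus was selected on its raw counts in these libraries, which were known when the members were chosen, and 1 library per group allows no test of the genotypes. Every value below therefore describes these 2 libraries, and every interval covers counting error only.

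The locus is known as a target of CREB, the transcription factor that answers cyclic AMP and calcium signals, and its microRNAs are known to be raised by angiotensin II in vascular cells. One primary transcript carries both hairpins. Each is cut out of it in the nucleus and then processed to a short duplex, of which 1 strand is usually kept as the guide and the other, the passenger, is mostly lost. The 3p strands of both hairpins are the ones usually described as guides. Their known targets include the mRNA of Rasa1, an inhibitor of Ras signalling.

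The mature sequences below show which members can act on the same targets, since a microRNA pairs with its targets mainly through its seed, bases 2 to 8. They are RefSeq sequences on GRCm38.p6, written 5′ to 3′ with the seed in capitals, and all 4 members matched an entry by name.
miR-132-3p: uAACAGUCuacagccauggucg
miR-212-3p: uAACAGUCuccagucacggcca
miR-132-5p: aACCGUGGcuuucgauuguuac
miR-212-5p: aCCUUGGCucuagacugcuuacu

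The 3p arms share the seed AACAGUC and are identical over their first 9 bases. They agree at 17 of 22 positions, and the differences of miR-212-3p from miR-132-3p, counted from 1 at the 5′ end, were A10C, C14U, U17C, U20C and G22A. The 5p arms have different seeds, ACCGUGG and CCUUGGC. Among the 1623 names with a sequence in the RefSeq table, no other name carried the AACAGUC seed, and neither 5p seed was shared. The nearest of these sequences outside the locus was 6 edits (substitutions, insertions or deletions) away from miR-212-3p, 7 from miR-132-3p and 8 from either 5p arm.

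The hairpins show where each arm lies within its precursor, with the mature arms in capitals and the 5p arm first. Mir212 occupies chr11:75173388-75173478 and Mir132 chr11:75173682-75173747, both on the plus strand of GRCm38.p6.
Mir212: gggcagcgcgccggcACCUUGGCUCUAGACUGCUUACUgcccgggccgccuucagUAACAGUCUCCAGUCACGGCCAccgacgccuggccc
Mir132: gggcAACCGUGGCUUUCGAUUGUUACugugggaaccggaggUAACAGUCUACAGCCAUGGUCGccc

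The hairpins are 203 bases apart. In the GENCODE M21 annotation of GRCm38, the assembly also called mm10, both lie in intron 1 of 1700016P03Rik, a noncoding transcript of 3 exons on the same strand of chromosome 11 (75172560 to 75177633). Mir212 comes first, 828 bases from the start of that transcript, and the intron spans 1380 bases.

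The db/+ library held 25915732 microRNA counts and the db/db library 24295112. Levels are given as CPM, counts per 1000000 microRNA counts of the library. The limit for an undetected microRNA, set at 3 counts, was 0.116 CPM in the db/+ library and 0.123 CPM in db/db. In total 356 microRNAs reached 50 counts in at least 1 library, all 4 members among them. The smooth muscle microRNAs miR-143 and miR-145a (4 arms) reached 1656 CPM as a sum in db/+ and 1567 CPM in db/db. Both libraries thus held these microRNAs, and which cells made them was not tested. Endothelial miR-126a (2 arms) summed to 0.270 and 2.92 CPM, and 5 epithelial markers to 0.270 and 0.864 CPM. These sums rest on few counts, 7 in db/+ and 71 in db/db for endothelial and 7 and 21 for epithelial markers. Of 7 blood and myeloid markers, miR-223-3p, miR-142a-3p and miR-144-3p were at 0 in both libraries, miR-150-5p was at 0 in db/+, and the sums were 6.48 and 6.75 CPM. Most of these sums, 150 of 168 counts in db/+ and 147 of 164 in db/db, came from miR-486a-5p alone. The sum of the 4 neuronal markers was 20.5 CPM in db/+ and only 3.75 CPM in db/db, where miR-137-3p was at 0. Most of the db/+ sum was on the 2 arms of miR-9, with 347 and 154 counts in db/+ and 19 and 11 in db/db, whereas miR-124-3p went the other way, from 28 to 61. The endothelial, epithelial and neuronal sums thus differed between the libraries alongside the locus, and their part in its values was not tested. In libraries from whole cultures, fewer cells that make a microRNA and less of it per cell cannot be told apart.

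Both 3p arms had lower levels in db/db than in db/+, miR-132-3p by a factor of 3.34 and miR-212-3p by 3.37, and both 5p arms were lower by a factor below 2. For miR-132-3p, the arm usually described as the guide, there were 146 counts in db/+ (5.63 CPM, 95% Poisson interval 4.76 to 6.63) and 41 in db/db (1.69 CPM, 1.21 to 2.29). The level was higher in db/+, and the intervals did not overlap. The ratio of db/db over db/+ was 0.2996 with an exact conditional 95% interval of 0.206 to 0.426, a log2 ratio of -1.73. In miR-212-3p, which carries the same seed, there were 97 counts in db/+ (3.74 CPM, 3.04 to 4.57) and 27 in db/db (1.11 CPM, 0.732 to 1.62). Its ratio was 0.297 (0.186 to 0.459) and its log2 ratio -1.73. The 3p arms thus had the same direction and nearly the same ratio. They come from separate hairpins of the same primary transcript, and their sequences differ at 5 positions. Whether reads of one 3p arm were counted for the other was not tested. The level of the AACAGUC seed, over both arms, was 9.38 CPM (8.23 to 10.6) in db/+ and 2.80 CPM (2.17 to 3.55) in db/db. The ratio for the seed was 0.2985 (0.225 to 0.392).

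The 5p arms, usually described as passengers, had smaller differences. For miR-212-5p there were 428 counts in db/+ (16.5 CPM, 15.0 to 18.2) and 254 in db/db (10.5 CPM, 9.21 to 11.8). Its ratio was 0.633 (0.540 to 0.741), or -0.66 on the log2 scale, and the intervals of its levels were apart. For miR-132-5p there were 82 counts (3.16 CPM, 2.52 to 3.93) and 46 (1.89 CPM, 1.39 to 2.53). The ratio was 0.598 (0.408 to 0.869) and the log2 ratio -0.73, and the intervals of its levels overlapped slightly. Neither 5p arm reached a 2-fold difference.

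**Figure D1:**
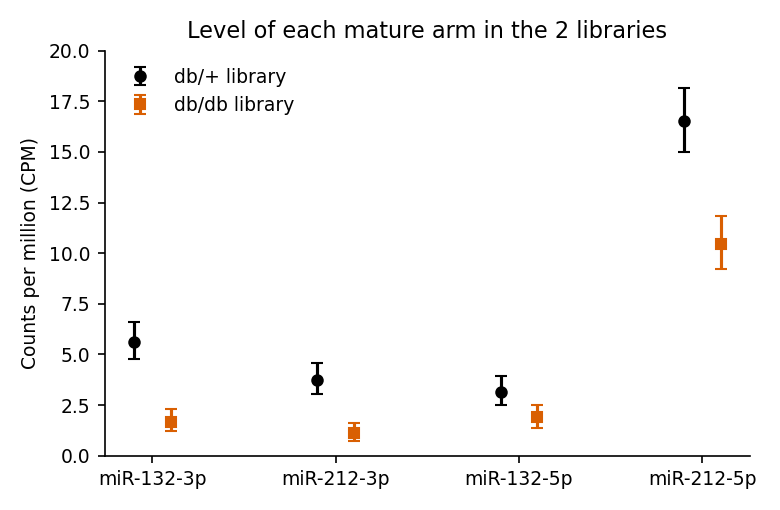
Level in CPM (vertical axis) of each mature arm in the db/+ library (circles) and the db/db library (squares), with 1 library per group and exact 95% Poisson intervals as bars. The db/db value is the lower of each pair, from 5.63 to 1.69 CPM for miR-132-3p and from 16.5 to 10.5 CPM for miR-212-5p, and the bars overlap only for miR-132-5p.

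Set against all microRNAs past 50 counts, the 3p arms lay near the low end of the ratios. A ratio of at most 0.5 was reached by 2 of the 4 members, both 3p arms, and by 13.5% of all 356 microRNAs. A ratio of at least 2 was reached by 0 members and 4.49% of all. The counting interval lay wholly below 0.5 for the same 2 members and for 8.99% of all, and wholly below 1 for 4 of 4 members and for 44.1% of all, a common outcome at this depth. The members were picked with these ratios known, so nothing is read from their counts. Counted from the lowest ratio, miR-212-3p stood at place 16 and miR-132-3p at place 17 of 356, next to each other. Just below them was miR-15a-5p with a ratio of 0.290 (0.253 to 0.330), and just above was miR-140-5p with 0.325 (0.243 to 0.429). The 5p arms stood at places 74 (miR-132-5p) and 81 (miR-212-5p). The median log2 ratio of the 4 members was -1.23, beside -0.14 over the 356. Of the members, miR-212-5p alone passed 50 counts in both libraries. The other arms did so only in db/+, where they were higher, so nothing is read from these places or this median.

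**Figure D2:**
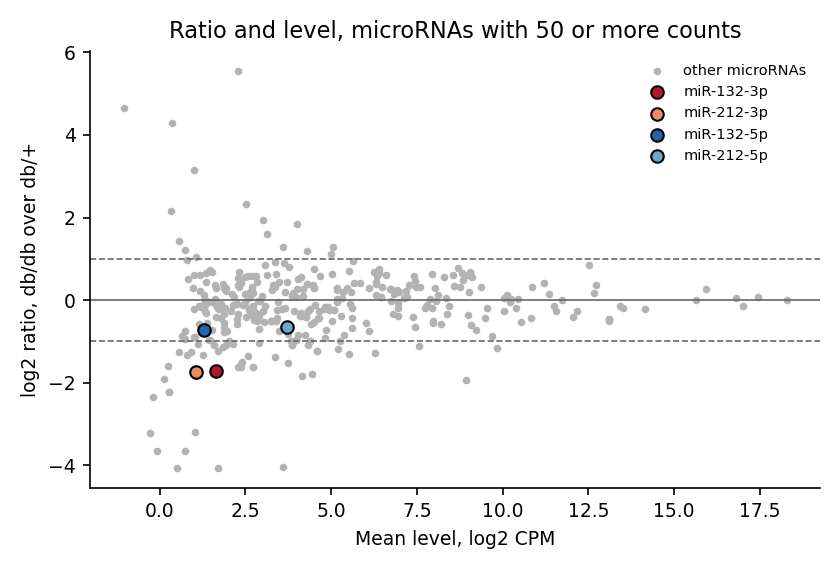
Log2 ratio of db/db over db/+ (vertical axis) against the mean level in log2 CPM (horizontal axis) of the 356 microRNAs that reached 50 counts, 1 point each. Dashed lines mark 2-fold, and the 3p arms lie below the lower one at -1.73 each while the 5p arms lie above it at -0.66 and -0.73.

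The order of the 4 levels also differed between the libraries in its lower part. In db/+ the order was miR-212-5p, miR-132-3p, miR-212-3p and miR-132-5p. There miR-212-5p had 2.93 times (2.42 to 3.56) the counts of miR-132-3p, which in turn had 1.505 times (1.16 to 1.97) those of miR-212-3p. The last step, from miR-212-3p to miR-132-5p, was within counting error at 1.18 (0.872 to 1.61). In db/db miR-212-5p was again first, with 5.52 times (4.02 to 7.73) the counts of the next arm, miR-132-5p. The remaining steps, 1.12 (0.720 to 1.75) from miR-132-5p to miR-132-3p and 1.52 (0.912 to 2.57) from there to miR-212-3p, did not exceed counting error. These orders compare counts of different sequences, whose capture during library preparation can differ.

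The most abundant arm of the locus was thus miR-212-5p and not a 3p arm. It took 56.8% (95% Clopper-Pearson interval 53.2 to 60.4) of the 753 locus counts in db/+ and 69.0% (64.0 to 73.7) of the 368 in db/db. For miR-132-3p the db/+ share was 19.4% (16.6 to 22.4) and the db/db share 11.1% (8.11 to 14.8). For miR-212-3p these shares were 12.9% and 7.34%. Among all detected microRNAs, miR-212-5p ranked at place 177 of 881 by level in db/+ and at place 199 of 833 in db/db. The rank of miR-132-3p was 258 and then 339. The summed locus had 29.1 CPM (27.0 to 31.2) in db/+ and 15.1 CPM (13.6 to 16.8) in db/db. Its ratio was 0.521 (0.459 to 0.591), and this sum mostly reflects miR-212-5p.

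Arm usage, given as the 3p arm's percentage of all counts of its hairpin, is taken within a library and so does not depend on the scaling between libraries. In the miR-132 hairpin the 3p share was 64.0% of 228 counts in db/+ (57.4 to 70.3) and 47.1% of 87 counts in db/db (36.3 to 58.1), a difference of -16.9 percentage points. In the miR-212 hairpin it was 18.5% of 525 counts in db/+ (15.2 to 22.1) and 9.61% of 281 in db/db (6.43 to 13.7), a difference of -8.87 percentage points. The hairpins therefore favoured opposite arms in db/+, yet the 3p share was lower in db/db in both. The intervals overlapped slightly for miR-132 and were apart for miR-212. Measured as odds of 3p to 5p counts, which allow hairpins with different starting shares to be compared, the db/db odds were 0.501 times those of db/+ for miR-132 (exact conditional interval 0.294 to 0.852). For miR-212 the figure was 0.469 (0.286 to 0.749). The interval of the odds lay below 1 in both hairpins, and with a log odds interval in 18.6% of the 204 hairpins with at least 50 counts in each library. Which arm of miR-132 was the major one in db/db could not be settled at this depth, since its interval held 50%. The major arm differed between the libraries in 3.92% of the 204 hairpins.

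Across those 204 hairpins, the 3p share did not shift in a common direction. The median difference was 0.00 percentage points, the quartiles were -1.06 and 0.84, and 90 had a lower 3p share in db/db. The share was lower by at least 10 points in 4.90% of hairpins, and it differed by as much in either direction in 9.80%. Of the locus hairpins, miR-132 passed that limit and miR-212 did not. Counted from the largest decrease in 3p share, miR-132 was at place 4 and miR-212 at place 13 of 204. In many of these hairpins 1 arm held nearly all counts, which leaves little room for a shift of 10 points. These places and percentages therefore do not show how common such a shift is where both arms are well counted. There, shifts of like size went both ways, such as -18.8 points in miR-23b and 18.6 in miR-106b.

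**Figure D3:**
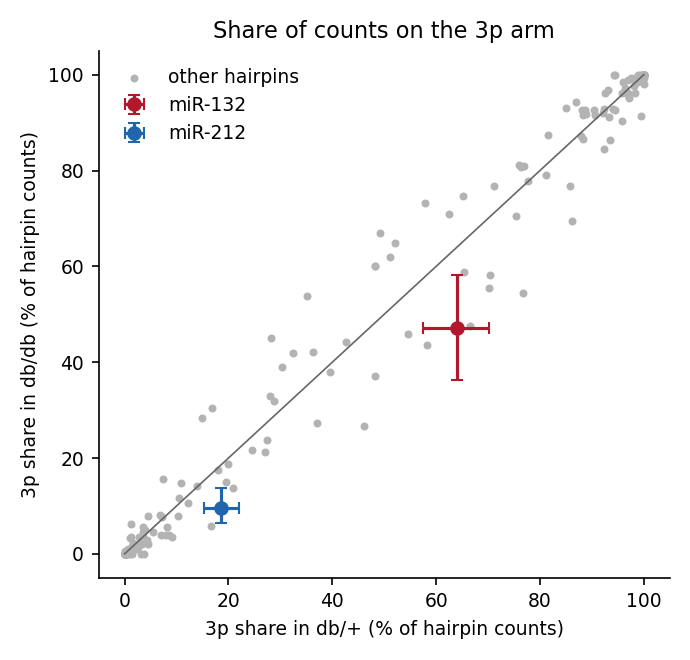
Percentage of hairpin counts found on the 3p arm, in db/+ (horizontal axis) and in db/db (vertical axis), for 204 hairpins with at least 50 counts in each library. Bars are 95% Clopper-Pearson intervals for the locus hairpins, and the line marks equal shares. Both lie below it, miR-132 at 64.0% and 47.1% and miR-212 at 18.5% and 9.61%.

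On the log2 scale, the ratio of the 3p arm minus that of the 5p arm was -0.99 for miR-132 and -1.07 for miR-212. Both arms passed 50 counts in 83 hairpins, in which the median of this difference was 0.10 with quartiles of -0.45 and 0.50. The median size without sign was 0.47. Counted from the lowest, miR-212 was at place 4 and miR-132 at place 6. Both arms of miR-132 and the 3p arm of miR-212 passed 50 counts only in db/+, where they were higher. Nothing is therefore read from these places. Over all microRNAs past 50 counts, the 168 named as 3p arms had a median log2 ratio of -0.18 and the 177 named as 5p arms -0.09. The differences of the 2 hairpins share the libraries and a primary transcript and are not independent of each other.

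**Figure D4:**
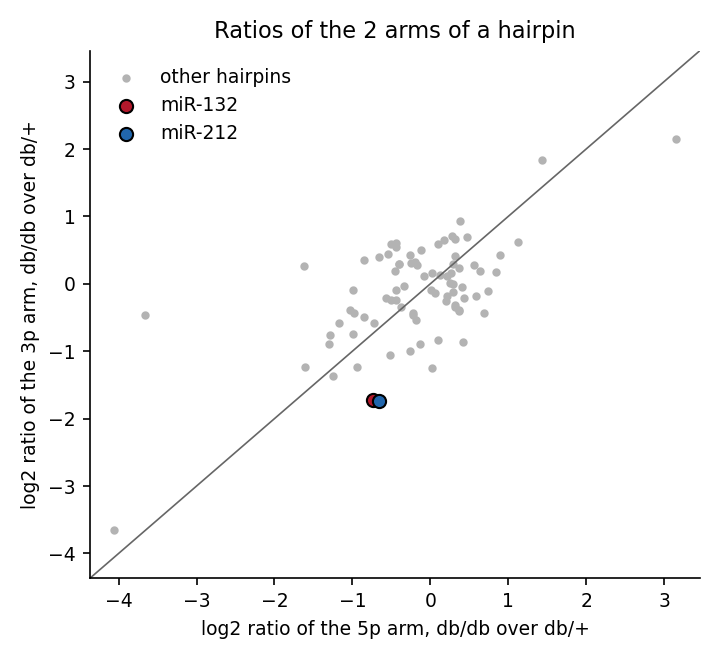
Log2 ratio of db/db over db/+ for the 3p arm (vertical axis) against the 5p arm (horizontal axis) of 83 hairpins with both arms past 50 counts, the line marking equal ratios. The locus hairpins lie next to each other below the line, with 3p ratios of -1.73 in both and 5p ratios of -0.73 (miR-132) and -0.66 (miR-212).

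The balance between the 2 hairpins depended on the arm looked at. For the 3p arms there were 1.505 counts of miR-132 per count of miR-212 in db/+ (1.16 to 1.97) and 1.52 in db/db (0.912 to 2.57). For the 5p arms it was 0.192 (0.149 to 0.243) and 0.181 (0.129 to 0.249). Within each arm the balance was therefore nearly equal in the libraries. Over both arms the db/+ value was 0.434 (0.370 to 0.508) and the db/db value 0.3096 (0.241 to 0.395), with overlapping intervals. The miR-132 hairpin as a whole had a ratio of 0.407 (0.314 to 0.523) of db/db over db/+, and the miR-212 hairpin 0.571 (0.492 to 0.661).

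Hairpins that lie close together are often cut from one transcript, so their ratios were set beside each other. The log2 ratios of the 2 locus hairpins, -1.29 for miR-132 and -0.81 for miR-212, differed by 0.48. In 55 other pairs of adjacent hairpins within 5 kb on 1 strand, each with both arms summed, the median difference was 0.30, with a range from 0.0015 to 1.84. In 36 of the 55 pairs the difference was no larger than in the locus. Most of these pairs lay on chromosome 12, where successive pairs shared a hairpin, so they are not independent of each other.

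Of 4 other annotated microRNA genes within 1 Mb, 3 had a name in the tables. The one with at least 50 counts was Mir22, 290.0 kb away on the same strand (chr11:75463716-75463810), which encodes a microRNA known from muscle growth. Its arms were lower in the db/db library by about as much as the 5p arms of the locus. For miR-22-3p there were 9316 and 5857 counts, a ratio of 0.671 (0.649 to 0.693), and for miR-22-5p 956 and 542, a ratio of 0.605 (0.543 to 0.673). Unlike in the locus, the 3p arm of miR-22 was not the lower of the pair. The others had few or no counts, with 6 and 15 for miR-6926-5p and 0 in both libraries for miR-6926-3p and miR-3971.

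MicroRNAs with the most similar pair of levels were found by distance over log2 CPM, which rests on only 2 libraries. The nearest to miR-132-3p were miR-18a-5p at a distance of 0.36 (ratio 0.422), miR-652-3p at 0.46 (0.467), miR-450a-5p at 0.51 (0.455), miR-467d-5p at 0.59 (0.506) and miR-7a-1-3p at 0.61 (0.506). None of these had a ratio as low as miR-132-3p. The nearest to miR-212-3p was miR-669l-5p at 0.079, whose counts were 101 and 26 and whose ratio was 0.275 (0.171 to 0.426). After it came miR-1839-3p at 0.40 (0.418), miR-194-5p at 0.41 (0.396), miR-129-1-3p at 0.47 (0.396) and miR-466d-3p at 0.48 (0.474).

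Of the other microRNAs linked to angiotensin II signalling, 12 of 14 past 50 counts had ratios below 1 (203 of all 356 did). The list held 15 names in all, several of them arms of the same microRNA, so its values are not independent of each other. In db/db, 2 of the 14 were 2-fold lower or more (13.5% of all microRNAs were) and 0 were 2-fold higher (4.49% of all). The median log2 ratio was -0.42, beside -0.14 over all 356. The 2 were miR-129-2-3p, at 1368 CPM in db/+ and at 617 in db/db (ratio 0.451, 0.443 to 0.460), and miR-129-1-3p (0.396, 0.242 to 0.630). With 70 and 26 counts, miR-129-1-3p passed 50 counts only in db/+, where it was higher. The abundant miR-21a-5p, known from fibrosis and growth, had a ratio of 0.706, while miR-221-3p and miR-222-3p, known to drive smooth muscle growth, had 0.906 and 1.09. Smooth muscle miR-143-3p had 0.971. The angiotensin receptor is a known target of miR-155-5p, whose ratio was 0.629 (0.579 to 0.682) and which was named after its values were seen.

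Of 8 microRNAs linked to CREB or to neuronal activity, 5 passed 50 counts and 0 reached 2-fold in either direction. Over all microRNAs, 13.5% were lower and 4.49% higher by as much. The median log2 ratio of the list was 0.19, with values on both sides of 0, and it was -0.15 at a floor of 10 counts. The most abundant, miR-329-3p, was higher in db/db with a ratio of 1.51 (1.44 to 1.57), and miR-134-5p had 1.14 (1.05 to 1.25). Both arms of miR-34b, a known regulator of Creb1, were lower, at 0.554 (5p) and 0.708 (3p).

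Since the locus is active in neurons, microRNAs enriched there were listed as well. Of 10, 6 passed 50 counts. Among these, 1 was higher by 2-fold or more (4.49% of all 356 were) and 3 were lower by as much (13.5% of all). The list had a median log2 ratio of -1.06, which was -0.38 at a floor of 10 counts and -1.15 without one. The lower ones were miR-9-5p (347 and 19 counts, ratio 0.0584), miR-9-3p (154 and 11, 0.0762) and miR-218-5p (54 and 13, 0.257, 0.129 to 0.477). The higher one was the neuronal miR-124-3p, whose counts were 28 and 61 and whose ratio was 2.32 (1.46 to 3.78). Each of these lower and higher ones passed 50 counts only in the library where it was higher. Nothing is therefore read from how many there were. The more abundant miR-128-3p and miR-7a-5p differed little, at 0.874 and 0.943. In all, 5 of the 6 had ratios below 1 (203 of all 356 did), and miR-124-3p was the exception. Of the 5, 2 were arms of miR-9.

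**Figure D5:**
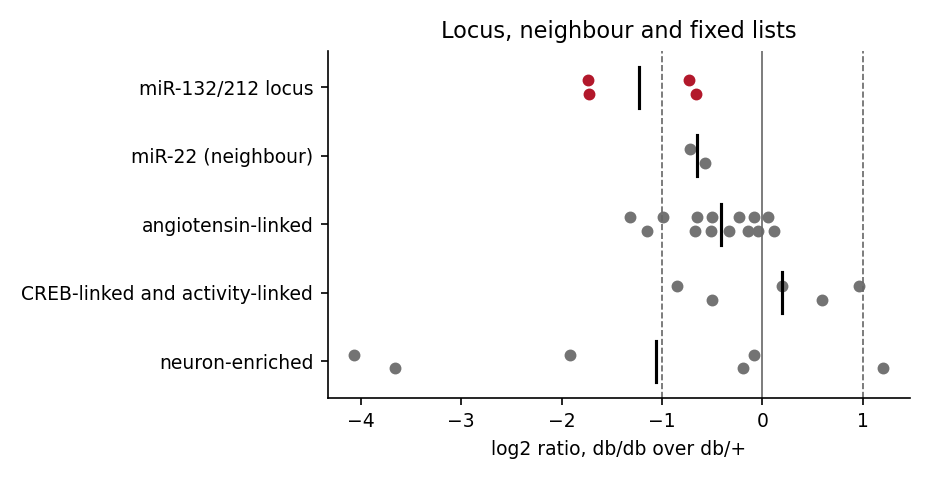
Log2 ratio of db/db over db/+ (horizontal axis) of the 4 locus arms, both arms of neighbouring miR-22 and the listed microRNAs with at least 50 counts, 1 point each, with the median of each row as a vertical bar and 2-fold as dashed lines. The locus median is -1.23, that of the angiotensin-linked list -0.42, that of the CREB-linked list 0.19 and that of the neuron-enriched list -1.06.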

How the data were processed

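Each of the 2 deposited tables holds raw counts for 1909 mature microRNAs, per the file headers, and the authors' TMM normalized reads, which are whole numbers and were treated as a score. Novoalign, edgeR and mm10 are named in the submitters' processing notes without roles or versions. How reads were trimmed, and how a read that matches more than 1 microRNA was counted, is not given in the sources used here.

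Counts were scaled to the library total. A single library per group leaves no residual spread, so no model was fitted and there are no p-values. Ratios carry exact conditional 95% intervals and levels exact Poisson intervals (scipy 1.17.1). Since reads without molecular identifiers include PCR copies, these intervals cover counting error only. Log2 ratios had 0.5 counts added. A microRNA was counted as 2-fold at a ratio of at least 2 or at most 0.5, with at least 50 counts in a library. Other scalings used edgeR 4.0.16 and DESeq2 1.42.0. Adjacent hairpins were paired where both arms were named in the tables and each name belonged to 1 hairpin only.

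The members, lists and limits were chosen with earlier results of these data known. Named microRNAs were the members, seed sharers, neighbours within 1 Mb, the 5 nearest patterns to each 3p arm, the next in the order of ratios, and of each list the 4 most abundant and those past 2-fold. The name miR-155-5p was added after its values were seen. The computation was tested on simulated counts.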

Additional observations from a re-analysis of the deposited data

How the results depend on the processing

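Other scalings moved all log2 ratios up by 0.09 to 0.12, and none changed the direction of a member. Over the scalings, the deposited TMM reads and, for single members, removal of a trend on GC content (both chosen after the data were seen), the ratio was 0.296 to 0.325 for miR-132-3p, 0.272 to 0.322 for miR-212-3p, 0.636 to 0.649 for miR-132-5p, 0.645 to 0.687 for miR-212-5p and 0.554 to 0.566 for the sum. The sum was 0.2985 with 3p arms only and 0.627 with 5p arms only. Thresholds set the counts by construction: 1 member was 2-fold lower at a floor of 100 counts, which miR-212-3p does not reach, and 4 were lower at a 1.5-fold limit. Of all microRNAs, a floor of 100 counts gave 35 lower and 11 higher of 295, and a 1.5-fold limit gave 86 and 48 of 356. A floor of 10 counts gave 91 and 46 of 553, and no floor gave 259 and 171 of the 967 detected. The median log2 ratio of the CREB-linked list was -0.15 when the floor was 10 counts and -0.13 without one, as members with few counts entered. Over all alternatives, 52 values for groups or sums and 37 for single members stayed within their counting interval, the spread of the list or 1.5-fold, and 5 places of single members in the order of ratios moved by more, each at a lower floor. Hairpins with a 10-point difference numbered 36 at a floor of 10. With 41 counts for miR-132-3p and 27 for miR-212-3p in db/db, depth left the upper bound of each 3p ratio over 2 times its lower bound. No paired analysis was possible because there was a single library in either group, which also means that none could be left out.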
